A study of Mus musculus with 3 samples.

Results

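Lymph node barcodes that carried T cell RNA were described among cells sorted as Cxcl13-expressing stroma. A barcode belonged to the set when it held at least 1 UMI (unique molecular identifier, 1 counted RNA molecule) of Trac, the constant region of the T cell receptor (TCR) alpha chain, or of Cd3d, a CD3 subunit, and no UMI of the B cell receptor genes Cd79a and Cd79b. Of 5486 deposited barcodes, 4513 had at least 200 genes and at most 10% mitochondrial UMIs, and 246 of these met the rule. They were divided by the summed UMIs of the matrix genes Col1a2, Col3a1 and Sparc. Those with fewer than 3 matrix UMIs (158) are called T cell barcodes, and those with 3 or more (88) are called T RNA-bearing reticular barcodes. Both names follow this limit alone and do not show which cell a barcode held. Since the members were chosen by their UMIs of Trac, Cd3d, Cd79a, Cd79b and the matrix genes, the levels of these genes and every contrast between both classes are descriptions without a test.

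The study asked how reticular cells of the B cell follicle, among them follicular dendritic cells (FDCs), differ and take part in the handling of antigen given as immune complexes (ICs). All libraries came from C57BL/6 mice with the Cxcl13-Cre/TdTomato transgene, in which cells that have driven the Cxcl13 promoter are marked, and all mice received antigen-IC. The 2-IC libraries (replicates 1 and 2) came from mice given 2 ICs, the first 7 days and the last 24 h before analysis, and the 1-IC library from mice given 1 IC 24 h before. Live Podoplanin+ CD31- CD45- TdTomato+ cells of pooled nodes were sorted and sequenced with the Chromium 3′ kit, so that a library is not a single animal. The paper's account of this sort names Podoplanin and TdTomato, and gives the exclusion of CD45 and CD31 for its flow cytometry gate of FDCs. No library of uninjected mice was analysed here, and with 1 library in the 1-IC group, 2-IC and 1-IC were not tested against each other.

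T cells recognise peptide on major histocompatibility complex molecules through the TCR alpha and beta chains, and the CD3 subunits and CD247 carry the signal into the cell through the kinase Lck. CD4 T cells help B cells and CD8 T cells kill infected cells. Naive T cells move through the nodes along the stromal chemokines CCL19 and CCL21, with CCR7 as the receptor, and leave through S1PR1.

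Values per library are always given in the order 2-IC replicate 1, then 2-IC replicate 2, then 1-IC. The libraries held 20607903, 12788101 and 3766526 UMIs, and 3133 of 3790, 756 of 1029 and 624 of 667 barcodes were kept. Barcode sequences were shared between libraries: 76 occurred in both 2-IC libraries, and the 1-IC library shared 2 with 2-IC replicate 1 and 0 with 2-IC replicate 2. Of the 76, 75 differed at least 10-fold in UMIs between their copies, with medians of 673 and 36187 UMIs. These sequences accounted for 2 members in 2-IC replicate 1 and 4 in 2-IC replicate 2. Without them 156 T cell barcodes and 84 T RNA-bearing reticular barcodes remained.

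T cell barcodes made up 3.5% of kept barcodes (95% exact binomial interval 2.98 to 4.08%). They numbered 86 (2.74%, 2.20 to 3.38%) and 42 (5.56%, 4.03 to 7.44%) in the 2-IC libraries and 30 in the 1-IC library (4.81%, 3.27 to 6.79%). The 1-IC share therefore lay between the shares of the 2-IC libraries. T RNA-bearing reticular barcodes made up 1.95% (1.57 to 2.40%), with 64 (2.04%) and 20 (2.65%) in the 2-IC libraries and 4 in the 1-IC library (0.641%, 0.175 to 1.63%). All intervals cover counting error only, and shares in sorted cells depend on the gate. In sums over a class, fewer cells with T cell RNA and less T cell RNA per cell cannot be told apart.

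**Figure D1:**
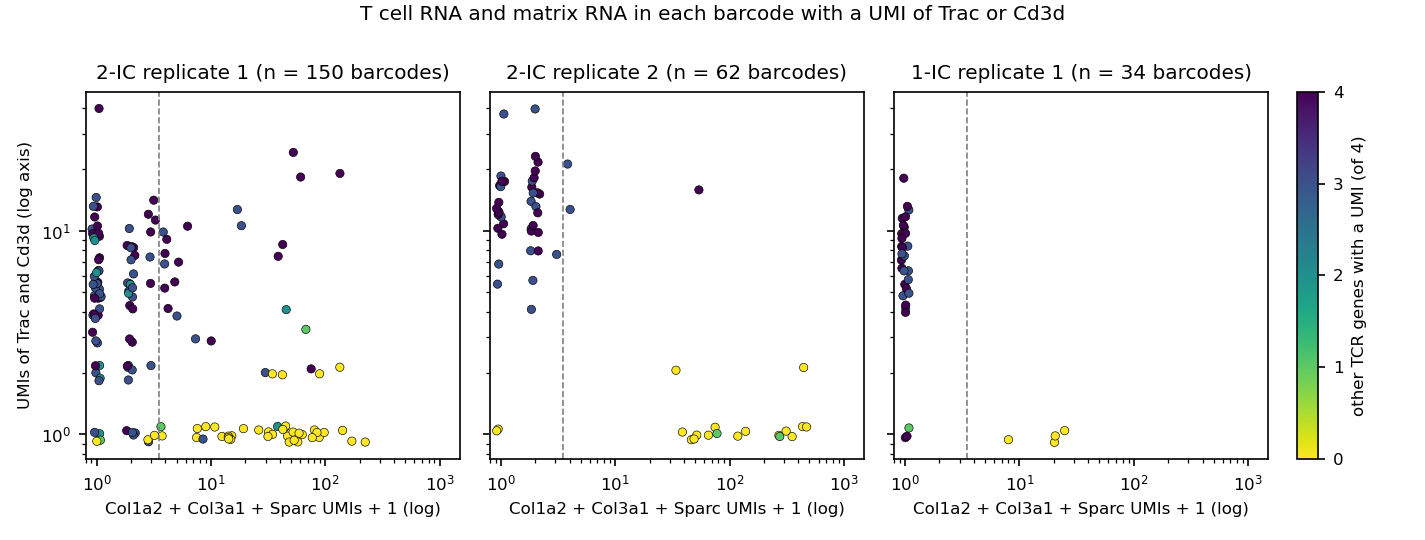
Matrix UMIs (Col1a2, Col3a1 and Sparc, summed) against Trac and Cd3d UMIs of the 246 barcodes, one panel per library, with points jittered and coloured by how many of Cd3e, Cd3g, Trbc1 and Trbc2 had a UMI. The dashed line separates 2 from 3 matrix UMIs; all 30 T cell barcodes of the 1-IC library sit at 0 matrix UMIs, and many barcodes right of the line carry a single T cell UMI and none of the 4 genes.

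Taken as a sum, the T cell barcodes carried the whole receptor complex, though not every barcode did. Of the 158, 153 had at least 1 UMI of Cd3e, Cd3g, Trbc1 or Trbc2, genes that the rule did not read, 138 had at least 3 of these 4 genes and 71 had all 4. The 5 barcodes with none (3, 2 and 0 per library) each held a single UMI of Trac or Cd3d. Their depths ran from 545 to 35896 UMIs, the lowest and highest of all T cell barcodes, and the levels below include them. Both rule genes were present in 122 barcodes, Trac alone in 10 and Cd3d alone in 26. Receptor genes outside the rule thus went with the label T cell in all but these 5 barcodes.

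Levels are given as CPM (counts per 1000000), UMIs of a gene scaled to the UMIs of the class summed within a library. Trbc2, a constant region of the TCR beta chain, stood at 2030, 1981 and 1907 CPM (1973 ± 61.5, SD, n = 3). The CD3 subunit Cd3g stood at 932, 816 and 808 CPM (852 ± 69.7, SD, n = 3), and Cd3e at 507, 631 and 563 CPM (567 ± 62.4, SD, n = 3). Trbc1, the other beta chain constant region, stood at 696, 779 and 1015 CPM (830 ± 165, SD, n = 3). Its sequence is close to that of Trbc2, so that the division of reads between them is uncertain. The rule genes Cd3d and Trac stood at 816 ± 75.0 and 655 ± 41.0 CPM (SD, n = 3), and Cd247 at 200 ± 58.5 CPM (SD, n = 3). Per barcode, Cd3g had a UMI in 93%, Trbc2 in 91.1%, Cd3e in 86.7% and Trbc1 in 53.8% of the 158. The summed complex of 7 genes came to 5893, 5777 and 6007 CPM, nearly even across libraries.

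Downstream of the receptor, all 16 listed signalling genes were detected at 10 CPM or more. The highest were the kinase Lck (434 ± 117 CPM), the adaptors Lat (399 ± 91.9) and Skap1 (345 ± 17.2), the kinase Txk (314 ± 37.6) and the adhesion receptor Cd2 (276 ± 47.4; SD, n = 3 throughout). The costimulatory receptor Cd28 stood at 261, 260 and 252 CPM. Zap70, the kinase recruited to CD3, stood at 87.5 ± 6.17 CPM (SD, n = 3).

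**Figure D2:**
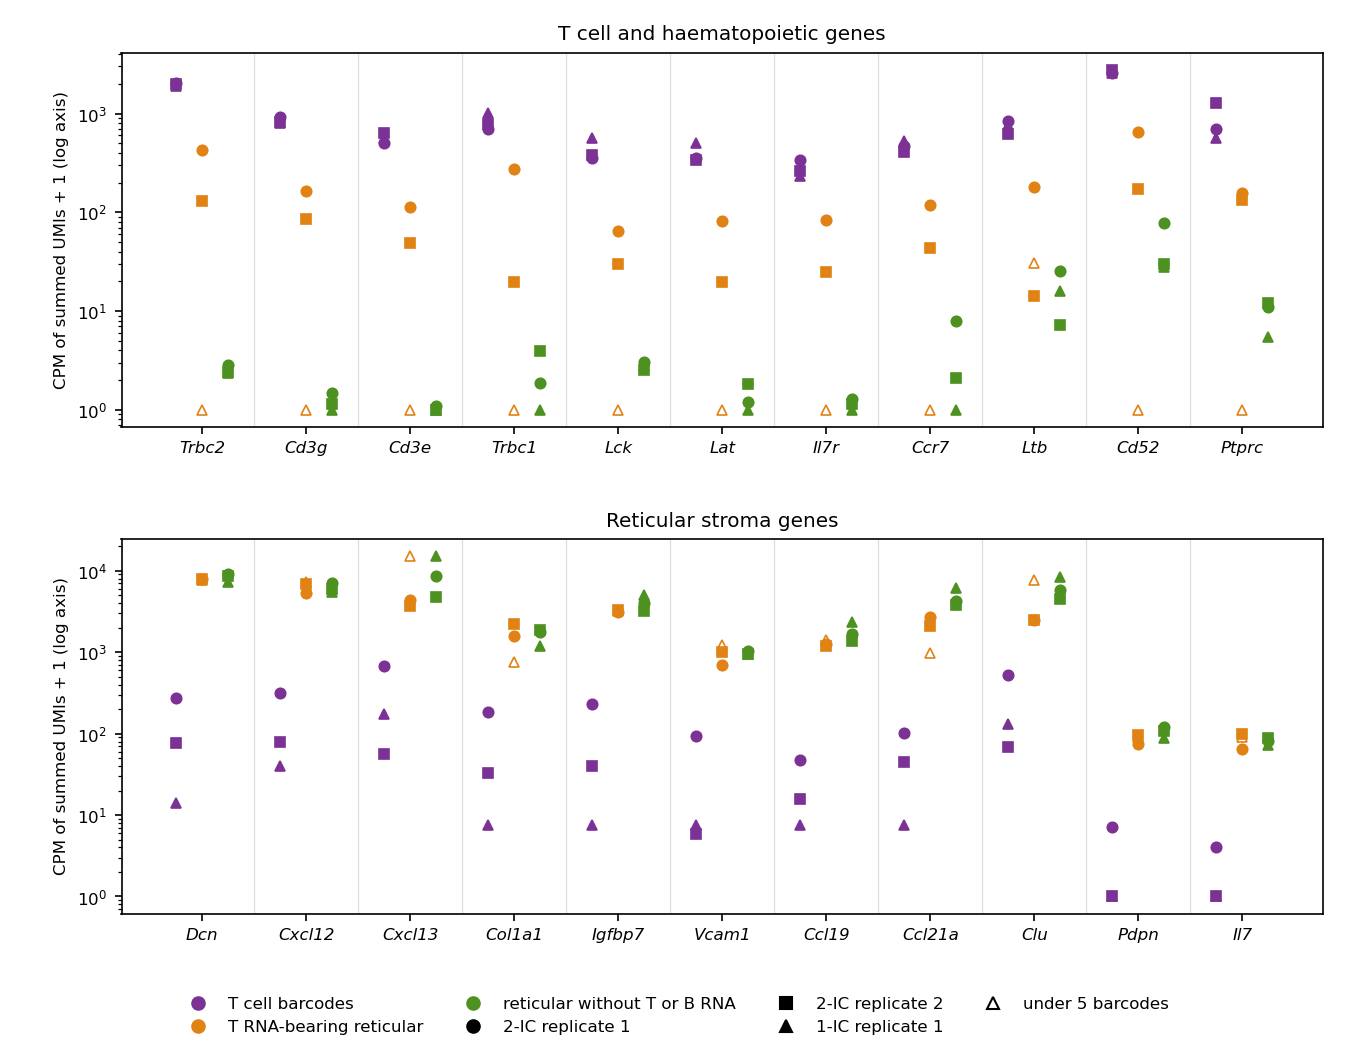
CPM + 1 on a log axis of T cell, haematopoietic and stromal genes, one point per library, in T cell barcodes, T RNA-bearing reticular barcodes and reticular barcodes without T or B cell RNA. Open triangles mark the 1-IC library where it held only 4 barcodes; apart from these, the T cell barcodes stand highest and the reticular barcodes without T cell RNA lowest for genes such as Trbc2, and the T cell barcodes stand lowest for stromal genes such as Dcn.

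Coreceptor RNA split the T cell barcodes. Cd4 alone was seen in 33 of 158 (20.9%, 14.8 to 28.1%), with 16, 12 and 5 per library. Cd8a or Cd8b1 without Cd4, the coreceptor of cytotoxic T cells, was seen in 62 (39.2%, 31.6 to 47.3%), with 31, 19 and 12. Both kinds met in 1 barcode, and 62 had neither (39, 10 and 13). Median depth without coreceptor RNA was 3343, 7234 and 4053 UMIs per library, against 3688.5, 7442 and 3820 for Cd4 alone and 3036, 10347 and 4637.5 for Cd8 alone, with no order that held in all 3 libraries. At these depths, absence of a UMI does not show absence of the coreceptor. By level, Cd8b1 stood at 354, 561 and 685 CPM, Cd8a at 115, 238 and 259 CPM and Cd4 at 77.7, 94.7 and 38.8 CPM.

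Genes that the grouping did not read followed it. Nkg7, a granule gene of cytotoxic lymphocytes, was seen in 49 of 62 Cd8 barcodes and in 0 of 33 Cd4 barcodes, which allows a share of up to 9.09%. Such limits, here and below, apply to barcodes with a UMI and not to cells that express the gene. In the Cd8 barcodes it stood at 620, 440 and 466 CPM. Klrd1, a chain of an inhibitory receptor of killer cells, was seen in 32 of 62 Cd8 barcodes and 3 of 33 Cd4 barcodes. Cd40lg, the ligand through which helper T cells signal to B cells, showed the opposite pattern, with 17 of 33 Cd4 barcodes and 0 of 62 Cd8 barcodes, which allows up to 4.84%. It stood at 194, 125 and 309 CPM in the Cd4 barcodes. Among the 62 barcodes with neither coreceptor, Cd40lg was seen in 20 and Nkg7 in 8. Klf2, a transcription factor of resting T cells, stood at 2905, 1570 and 2507 CPM in the Cd8 barcodes and at 1498, 1126 and 1102 CPM in the Cd4 barcodes, so that each Cd8 value exceeded every Cd4 value. These barcodes share libraries, and no test over barcodes was made.

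Genes of naive and recirculating T cells were high. All 13 of that list stood at 10 CPM or more and summed to 5731, 6369 and 5282 CPM. The highest were Klf2 (1690 ± 418 CPM), the membrane protein Ms4a4b (848 ± 271), the chemokine receptor Ccr7 (471 ± 60.0), the chromatin organiser Satb1 (345 ± 193) and the GTPase Gimap6 (320 ± 119; SD, n = 3 throughout). Ccr7 was seen in 63.9% of barcodes, the transcription factor Lef1 in 65.8% and the egress receptor S1pr1 in 62.0%. Median depth per T cell barcode was 3138.5, 8891.5 and 4313 UMIs.

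Activation and follicular helper genes were uneven. Cd69, an early activation marker, stood at 389, 471 and 659 CPM and was seen in 107 barcodes. The signalling adaptor Sh2d1a (112 ± 30.3 CPM), the transcription factor Maf (91 ± 31.9), the costimulator Icos (89.7 ± 11.2) and Cd40lg (88.3 ± 51.8; SD, n = 3 throughout) came next in the list. The markers that define follicular helper T cells were near 0. Cxcr5, the receptor for CXCL13, was seen in 3 of 158 barcodes with 3 UMIs, the inhibitory receptor Pdcd1 in 3, the transcription factor Bcl6 in 7 and the cytokine Il21 in 1.

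Other subsets were few. Foxp3, the transcription factor of regulatory T cells, had 15 UMIs in 7 of 158 barcodes (4.43%, 1.80 to 8.92%). Ikzf2, Ctla4, Tnfrsf18 and Il2ra, further genes of that list, stood at 91.3 ± 51.4, 64.4 ± 36.9, 58.9 ± 25.1 and 47.6 ± 15.3 CPM (SD, n = 3). Trdc, the TCR delta constant region, was seen in 9 barcodes (46.6, 51.0 and 0 CPM), and Tcrg-C1, a gamma constant region, in 8 (37.0 ± 5.31 CPM, SD, n = 3). Of the 62 barcodes with neither coreceptor, 14 carried Trdc or a gamma constant region. Ncr1, which marks natural killer cells, was seen in 0 of 158 barcodes, which allows up to 1.90%, and the granzyme Gzma had 1 UMI.

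Ccl5, a chemokine of cytotoxic T cells, stood at 653, 296 and 6569 CPM, but it was seen in only 16 of 158 barcodes. In the 1-IC library 862 of its 1016 UMIs (84.8%) came from 1 barcode, and 991 lay in barcodes with neither coreceptor. Nkg7 by contrast stood at 227, 248 and 220 CPM. Its mean was 231 ± 14.4 CPM (SD, n = 3), so that its level was even across libraries where that of Ccl5 was not. Ltb, the lymphotoxin beta chain through which lymphocytes maintain stroma, stood at 833, 621 and 763 CPM. The proliferation marker Mki67 was seen in 4 barcodes.

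Outside the lists, the genes with the largest ratio of T cell to T RNA-bearing reticular barcodes were Arl4c, a small GTPase (318 ± 77.4 CPM, ratio 13.3), Dapl1 (358 ± 35.7, 11.2), the signalling adaptor Hcst (440 ± 51.4, 8.60), Gm12840 (342 ± 58.0, 8.05) and the homing integrin Itgb7 (233 ± 16.3, 8.03; SD, n = 3 throughout). Slfn2, Epsti1, Gm8995, Cytip and Lsp1 followed with ratios from 7.42 to 6.89. Over 3617 genes of at least 50 CPM, 762 (21.1%) were higher and 1368 (37.8%) lower in every T cell sum (3 libraries) than in every T RNA-bearing reticular sum (both 2-IC libraries). The matrix limit chose this contrast, so nothing is read from those shares. All 15 reticular stroma genes compared were lower, with a median ratio of 0.0285 against 0.861 over all 3617 genes, and 8 of 10 immediate early genes were lower. Fos, an early transcription factor induced by stress and signalling, stood at 1641, 954 and 879 CPM in T cell barcodes and at 5885, 4473 and 8208 CPM in the reticular barcodes with T cell RNA. Of 6 interferon-induced genes compared, 5 were higher.

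Although the gate given above excludes CD45, which the paper does not state for this sort, its gene Ptprc was seen in 144 of 158 T cell barcodes (696, 1286 and 563 CPM). Other haematopoietic genes were high as well. The surface peptide Cd52 stood at 2558, 2794 and 2593 CPM, the actin regulator Coro1a at 1178, 1192 and 1015 CPM and the GTPase Rac2 at 814, 738 and 821 CPM. Cd52 lay above Ptprc in every library, and Coro1a and Rac2 did so outside 2-IC replicate 2. Pdpn, the gene of the Podoplanin used in the gate, had 2 UMIs in 2 of 158 barcodes, and Pdgfrb, a receptor of mesenchymal cells, had 0. For both Ptprc and Pdpn the RNA of these barcodes was thus opposite to the gate as given above, and TdTomato RNA was not analysed here.

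Stromal RNA was present at low level in many T cell barcodes. Cxcl13, the follicular chemokine that drives the reporter, was seen in 69 of 158 (43.7%), at 671, 55.8 and 175 CPM against 8603, 4803 and 14981 CPM in the reticular barcodes without T or B cell RNA. Of its 266 UMIs, 113 lay in 1 barcode. The collagen-binding proteoglycan Dcn stood at 270, 75.2 and 12.9 CPM, Col1a1 at 183, 31.6 and 6.47 CPM and the chemokine Cxcl12 at 314, 77.7 and 38.8 CPM. For these 3 genes 2-IC replicate 1 was highest and the 1-IC library lowest. Over the list of 20 reticular stroma genes the sums were 2073, 374 and 259 CPM. No matrix UMI was held by 48 of 86 and 20 of 42 barcodes of the 2-IC libraries and by all 30 of the 1-IC library, so that by this share the 2-IC libraries did not follow the order of the sums.

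RNA of other cell types was uneven. The 15 B cell genes summed to 995, 3095 and 394 CPM in T cell barcodes. Their defining members Cd79a and Cd79b were at 0 by the rule. Ighm, the immunoglobulin heavy chain, stood at 252, 279 and 233 CPM, and Igkc, the kappa chain, at 295, 107 and 6.47 CPM. Cd74, the invariant chain of class II presentation, stood at 218, 1182 and 123 CPM, with 478 of its 576 UMIs in 1 barcode. The 12 myeloid genes summed to 525, 1801 and 556 CPM. Cst3, a protease inhibitor abundant in myeloid and stromal cells, stood at 186, 1495 and 149 CPM, and the macrophage genes C1qa and C1qb were at 0. Of 10 endothelial genes 8 were at 0, Cdh5 and Cldn5 among them, and the 10 summed to 109, 89.8 and 110 CPM. The part of such RNA in the levels above was not tested.

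V segments give a further view of single receptors. A UMI of any of 128 annotated Trav segments (TCR alpha variable) was seen in 42 of 158 T cell barcodes (73 UMIs from 33 segments), and one of 35 Trbv segments (beta variable) in 40 (48 UMIs from 16 segments). Only 1 barcode held UMIs of more than 1 Trbv segment, and 9 held more than 1 Trav segment. No Trav UMI was seen in 2398 reticular barcodes without T or B cell RNA, and a Trbv UMI was seen in 1. In B cell barcodes 7 of 852 had a Trav UMI and 7 a Trbv UMI. The V segments, like the split of the reticular barcodes that follows, were chosen for study after values were seen.

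The 88 T RNA-bearing reticular barcodes were of 2 kinds. In 31 (26, 5 and 0 per library) at least 1 of Cd3e, Cd3g, Trbc1 and Trbc2 was also present, and in 25 at least 3 were. In the other 57 (38, 15 and 4) none was, and 51 of these held a single UMI of Trac or Cd3d. All 4 barcodes of the 1-IC library were of the latter kind. The 31 had a median of 9 matrix UMIs, 26.8% ribosomal protein UMIs and 8575 UMIs in all. The 57 had medians of 47 matrix UMIs, 13.9% and 9537. Reticular barcodes without T or B cell RNA had medians of 25, 13.4% and 6422.5, but these pool libraries of unlike depth. By library, the 57 had medians of 7630, 15119 and 6937 UMIs against 5289, 15733 and 7013.5, and of 41.5, 110 and 20 matrix UMIs against 21, 70 and 23, so that neither order held in all 3 libraries. T cell barcodes had 36.2% ribosomal protein UMIs.

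The matrix limit did not fall in a gap. At 2 matrix UMIs stood 11 T cell barcodes, of which 9 carried at least 3 of the 4 other receptor genes, with a median of 3159 UMIs. At 3 matrix UMIs stood 10 reticular barcodes, of which 8 carried at least 3, with a median of 4607 UMIs.

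The 31 barcodes, taken as sums, held T cell and stromal RNA, but they were uneven, with 3 to 297 matrix UMIs and medians of 8.5 and 54 in the 2-IC libraries. Summed over libraries, Trbc2 stood at 806 CPM, Trac at 364, Cd3g at 352, Cd3d at 335 and Cd3e at 230 CPM. Ptprc was seen in 23 of 31 and Cd52 in 29. At the same time Cxcl13 was seen in 28 (2805 and 7272 CPM in the 2-IC libraries), Dcn in 26 (3773 and 4024 CPM) and Pdpn in 9. Of the 703 Cxcl13 UMIs of 2-IC replicate 2, 374 lay in 1 of its 5 barcodes. Cd4 alone was seen in 7, Cd8a or Cd8b1 alone in 9 and neither in 15, and Foxp3 in 0, which allows up to 9.68%. A Trav UMI was seen in 6 and a Trbv UMI in 3. One of the 31 carried the natural killer genes Ncr1 (13 UMIs) and Gzma (35 UMIs), and 72 of 127 UMIs of the costimulatory receptor Tnfrsf4 lay in 1 barcode.

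The 57 barcodes had little else of a T cell. Ptprc and Rac2 were seen in 1 of 57 each, and Lck, Cd4, Cd8a, Cd8b1 and the interleukin 7 receptor Il7r in 0, which allows up to 5.26%. Cd52 was seen in 8 of 57 (14%), against 13.4% of reticular barcodes without T or B cell RNA. No Trav or Trbv UMI was seen. Stromal genes are given as values. The edgeR comparison of these barcodes, given below, did not call Dcn (log2 fold change -0.04), Cxcl12 (0.17) or Cxcl13 (-0.71). Dcn stood at 11577, 9214 and 7668 CPM, against 9026, 8712 and 7347 CPM. Cxcl12 stood at 8929, 7820 and 7249 CPM, against 7012, 6006 and 5517 CPM. Cxcl13 stood at 5621, 2421 and 15097 CPM, against 8603, 4803 and 14981 CPM, and thus lower in both 2-IC libraries. The 1-IC values rest on 4 barcodes.

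The proportion of Trac to Cd3d was described per class, without a test, since both genes chose the members and their UMIs cluster within barcodes, so that the intervals are too narrow. In T cell barcodes Trac gave 44.2, 47.2 and 42.4% of the UMIs of both genes (589 Trac and 714 Cd3d UMIs, 45.2%, 95% exact interval 42.5 to 48.0%). In the 31 barcodes it gave 51.3 and 54.9% in the 2-IC libraries (52.1%, 45.6 to 58.6%). Reticular barcodes with no Cd3e or Cd3g UMI held 65 Trac and 8 Cd3d UMIs in 2453 barcodes (89%, 79.5 to 95.1%), with 86, 94.7 and 100% per library. B cell barcodes with no Cd3e or Cd3g UMI held 13 of each (interval for the Trac share 29.9 to 70.1%). The 1-IC value of the reticular barcodes rests on 4 UMIs (39.8 to 100%). In GRCm38, Trac lies at chr14:54220521-54224206 on the plus strand, and Cd3d at chr9:44981786-44987339 on the plus strand, next to Cd3g at chr9:44969572-44980431 on the minus strand.

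**Figure D3:**
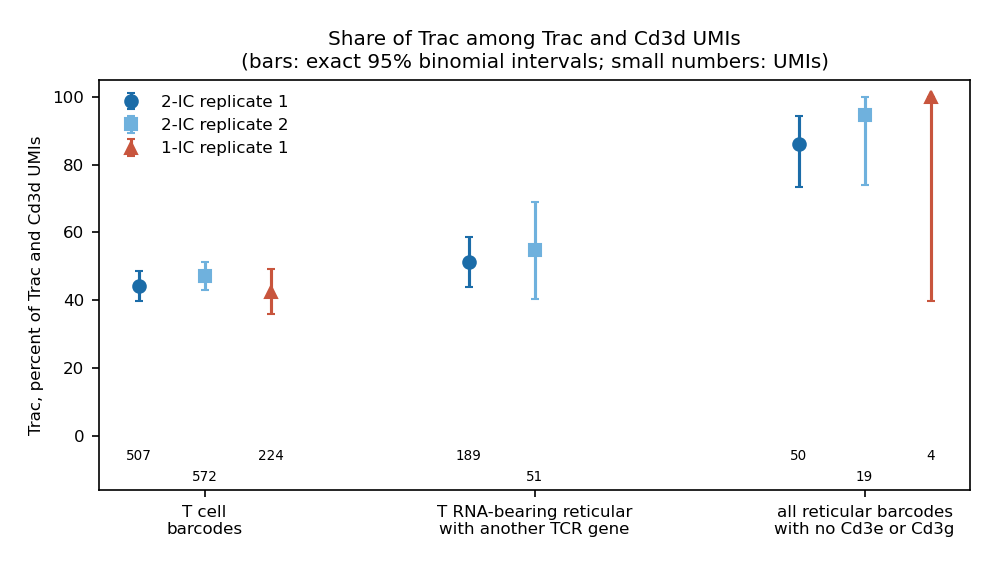
Share of Trac among Trac and Cd3d UMIs (%), with exact 95% binomial intervals, per source and library. T cell barcodes lie between 42.4 and 47.2%, and reticular barcodes without Cd3e or Cd3g at 86% or above.

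The share of reticular barcodes with T cell RNA was set beside that of a cell type that should lack it, and at equal depth. Among reticular barcodes without B cell RNA, 88 of 2486 (3.54%, 2.85 to 4.34%, median 6465.5 UMIs) carried Trac or Cd3d. Among B cell barcodes, 41 of 852 (4.81%, 3.48 to 6.47%, median 3711.5 UMIs) did. After each barcode of at least 2000 UMIs was thinned to 2000 UMIs, which left out 207 reticular and 133 B cell barcodes, the shares were 38 of 2279 (1.67%, 1.18 to 2.28%) and 22 of 719 (3.06%, 1.93 to 4.60%). The reticular share was the lower at both depths, with overlapping intervals. The source of the RNA was not tested in either class. For Trac by itself the shares were 3.30% of reticular and 2.93% of B cell barcodes (1.27% and 1.81% after thinning). For Cd3d they were 1.25% and 3.40% (0.878% and 2.36% after thinning). By library, the reticular shares were 3.68, 4.49 and 1.32%, and 2.03, 1.20 and 0.350% after thinning, so that the order of the 2-IC libraries turned with depth.

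The share was also taken for reticular barcodes with a marker of 1 kind of reticular cell. Cr2, the complement receptor of FDCs, marked 193 barcodes, of which 4 carried T cell RNA (2.07%, 0.568 to 5.22%). Madcam1, an adhesion molecule of FDCs and marginal reticular cells, marked 172, of which 1 did. Tnfsf11, the RANK ligand of marginal and interfollicular reticular cells, marked 794, of which 24 did (3.02%, 1.95 to 4.46%). Inmt, which marks medullary reticular cells, was found in 1501, of which 55 did (3.66%, 2.77 to 4.74%). Fmod, which marks reticular cells at the border of T and B cell zones, was found in 397, of which 10 did (2.52%, 1.21 to 4.58%), and all 10 lacked the 4 other receptor genes. After thinning, 1 of 181, 0 of 163, 11 of 770, 20 of 1439 and 3 of 390 carried T cell RNA, in the order named. The intervals overlapped, and marker genes can meet in 1 barcode.

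Reticular barcodes with T cell RNA were tested against those without, as sums per library with the library as a block, with the quasi-likelihood test of edgeR and p-values adjusted by Benjamini-Hochberg over all genes. Of 9557 genes outside the rule, 58 were higher (0.607%) and 23 lower (0.241%) with T cell RNA, 81 in all (0.848%). The sums held 539663, 377112 and 33384 UMIs with T cell RNA and 10130113, 7129747 and 2208644 UMIs without. Of the 88 barcodes with T cell RNA, 10 held 3 matrix UMIs and 12 held 4 to 11. Among barcodes of 10 or more matrix UMIs, 24 genes were higher and 11 lower. All 9 haematopoietic genes tested were higher, though a gene passes a filter on low counts more easily where it is high, so that this count describes the list and does not support it. Of the 17 reticular stroma genes tested none was called, with a median log2 fold change of -0.23 against -0.05 over all genes.

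Ptprc stood at 156, 133 and 0 CPM with T cell RNA against 10.1, 10.9 and 4.53 CPM without (log2 fold change 3.67 ± 0.34 SE, adjusted p = 3.98e-24 in edgeR). In the 1-IC library 1 UMI with T cell RNA is 30.0 CPM, so that a 0 there shows neither a rise nor its absence. Of the 81 genes, 47 went the same way in all 3 libraries (27 higher and 20 lower), and from these the next genes were taken. A 0 with T cell RNA was counted as lower. All 5 genes taken as lower had 0 UMIs with T cell RNA in the 1-IC library, which thus adds little on their direction. The 5 that were higher lay under 9 CPM in every sum without T cell RNA and so came through the filter mainly by the class where they are high, as said of the haematopoietic genes. Their values are a description. Bin2, a membrane-bending protein of leukocytes, stood at 31.5, 18.6 and 30.0 CPM against 1.88, 1.12 and 1.36 CPM (4.04 ± 0.62). Tcf7, a transcription factor of naive T cells, stood at 64.9, 42.4 and 30.0 CPM against 5.82, 6.17 and 8.60 CPM (3.01 ± 0.44). The others were the cell cycle regulator Rgcc (3.74 ± 0.60), the uracil DNA glycosylase Ung (3.41 ± 0.61) and the G protein regulator Rgs10 (2.81 ± 0.45). In the 1-IC library, values of 30.0 CPM correspond to 1 UMI.

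Cr2 was among the genes lower with T cell RNA. It stood at 3.71, 5.30 and 0 CPM against 85.6, 61.9 and 113 CPM (log2 fold change -4.19 ± 0.56 SE, adjusted p = 7.77e-11 in edgeR). These are 4 UMIs against 1558. Cr2 thus came through the filter on low counts mainly by the class where it is high, as did the other genes of this paragraph. Their values and calls are a description. Cr2 was seen in 4 of 88 barcodes with T cell RNA (4.55%) and in 189 of 2398 without (7.88%), so that the shares of barcodes lay nearer to each other than the levels. Fcgr2b, an inhibitory Fc receptor, had 1 UMI against 362, a ratio of 17.7 (95% counting interval 3.15 to 700; adjusted p = 0.0148 in edgeR). Of 9 FDC genes tested these were the 2 called lower, beside 0.241% of all genes. Because of the filter this count describes the list and does not support it. Madcam1 missed the threshold (-1.85, adjusted p = 0.0534 in edgeR). Madcam1 had 0 UMIs with T cell RNA in both 2-IC libraries, against 456 and 129 without, but stood at 240 against 68.8 CPM in the 4 barcodes of the 1-IC library (8 UMIs). Without that library Madcam1 was called lower (adjusted p = 3.16e-08 in edgeR), but it then entered the test by the class without T cell RNA alone, so that the call is a description. Stra6, a retinol transporter, had 0 UMIs against 236, so that it entered the test by the class without T cell RNA alone. As a description, it was at least 3.84-fold lower, with a floor of 3 UMIs over the class (adjusted p = 0.0284 in edgeR). Glycam1, a mucin of high endothelial venules, fell (-3.25 ± 0.72, adjusted p = 0.00161 in edgeR), and 674 of its 749 UMIs without T cell RNA came from 2-IC replicate 1. Gm42031 had 3 UMIs against 446, a ratio of 7.26 (2.47 to 35.3). The calls of Fcgr2b, Stra6 and Gm42031 were lost without 2-IC replicate 1, without 2-IC replicate 2, without the replicate block and in DESeq2. That of Glycam1 was lost without the block and in DESeq2, and that of Cr2 in barcodes of 2000 to 8000 UMIs. The log2 fold changes stayed negative in these fits. They ran from -3.61 to -7.92 for Fcgr2b and from -1.60 to -4.04 for Gm42031, with -2.86 and -2.98 for Glycam1 and -3.30 for Cr2.

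Of the list on guidance of T cells by stroma, 1 of 7 genes was called lower, beside 0.241% of all genes. Ccl21a, the ligand of CCR7, stood at 2705, 2119 and 988 CPM with T cell RNA against 4241, 3790 and 6168 CPM without (-1.42 ± 0.40, adjusted p = 0.0460 in edgeR). Without the 1-IC library the change was -0.73 (adjusted p = 0.0109 in edgeR), and without barcodes that held other receptor genes the call was lost (-1.36, adjusted p = 0.130 in edgeR). Cxcl13 was not called (-0.64, adjusted p = 0.9995 in edgeR). The class II genes Cd74 (-1.48 ± 0.31), H2-Aa (-1.36 ± 0.35) and H2-Eb1 (-1.41 ± 0.35) were lower, and H2-Eb1 was not lower in the 1-IC library. H2-Ab1 was not called (-0.85, adjusted p = 0.326 in edgeR). The T cell lists are given as a description, beside the 0.607% of all genes called higher, since most of their genes were not tested, and Tcf7, Gimap6, Txk and Cd247 lay under 9 CPM in every sum without T cell RNA and so came through the filter mainly by the class where they are high. Of 13 naive genes 5 were tested and 4 called higher (Tcf7, Satb1, Gimap6 and S1pr1), of 16 signalling genes 3 and 1 (Txk), of 7 receptor genes 1 and 1 (Cd247) and of 6 ligands 3 and 1 (Ltb). In the other lists 0 of 10 immediate early, 0 of 7 interferon-induced and 0 of 4 medullary genes were called.

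**Figure D4:**
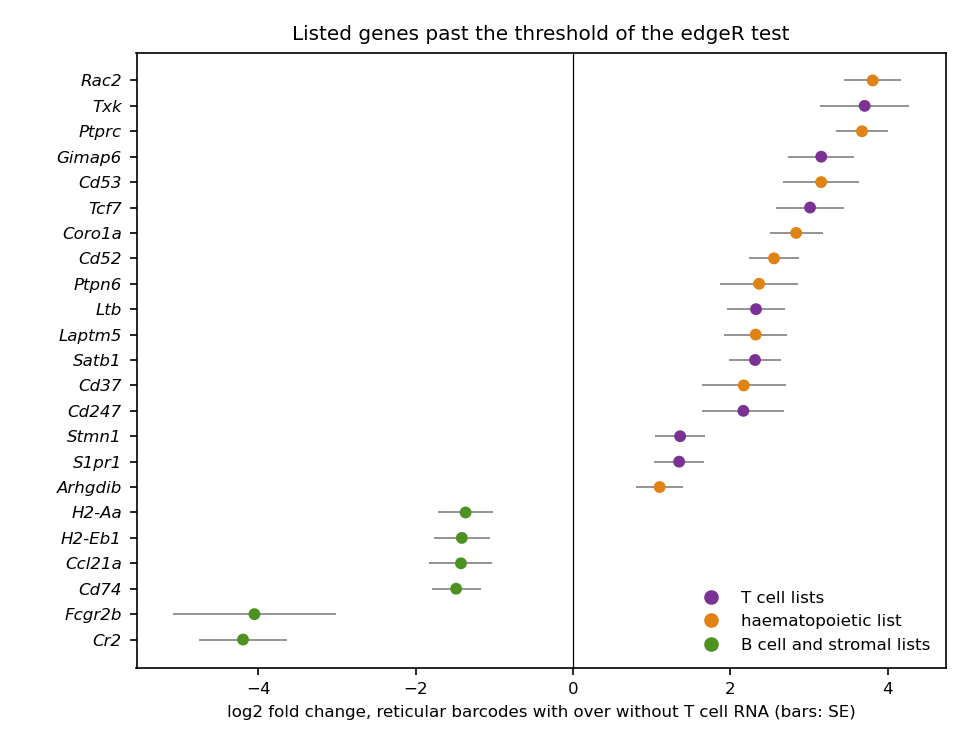
Log2 fold change (reticular barcodes with minus without T cell RNA) ± SE of the listed genes called by edgeR. Haematopoietic and T cell genes lie above 0, with Rac2 at 3.81, and the FDC genes Cr2 and Fcgr2b lie lowest.

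The filter and the 1-IC library weighed on these counts. Without the 1-IC library 275 genes were higher (2.19%) and 58 lower (0.461%) of 12578, and 5 of 5 receptor, 15 of 16 signalling, 3 of 3 coreceptor and 12 of 13 naive genes were higher. These T cell genes again entered through the class with T cell RNA, and their counts are a description. Then 6 of 10 FDC genes were lower. Cr2, Fcgr2b and Madcam1 among them had few or no UMIs with T cell RNA, so that this count is a description too. Cxcl13 was called lower as well (-0.68, adjusted p = 0.0228 in edgeR). Without 2-IC replicate 1, 3 genes were higher and 2 lower, and without the library block 32 and 2. In barcodes of 2000 to 8000 UMIs, 6 were higher and 0 lower (107 genes at an unadjusted p under 0.05).

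When barcodes with a UMI of Cd3e, Cd3g, Trbc1 or Trbc2 were left out of both classes, a comparison chosen after values were seen, 12 genes were higher (0.132%) and 11 lower (0.121%) of 9103. No gene of the T cell or haematopoietic lists was called (0 of 3 haematopoietic and 0 of 4 naive genes tested). The barcodes left out held most of the T cell RNA, so that the loss of these calls was largely set by the choice. No gene of the receptor list outside the rule was tested, and 3 haematopoietic genes were tested where the main comparison tested 9. Cr2 stayed lower (-3.85 ± 0.61, adjusted p = 1.79e-06 in edgeR), a description as said above. Next were Lyz2, the lysozyme of myeloid cells (-3.19 ± 0.57, adjusted p = 7.45e-05 in edgeR), and Aif1, known from macrophages (-2.34 ± 0.43, adjusted p = 0.000159 in edgeR). Lyz2 had 5 UMIs in the 57 barcodes, so that its value is a description too. Lyz2 was the 1 called of 3 myeloid genes tested, and the 12 genes of that list summed to 1018, 603 and 689 CPM in these barcodes against 1154, 625 and 925 CPM in those without T or B cell RNA, with Cst3 the most abundant in both and Fcer1g, Itgam and Itgax at 0 in the former. The part of myeloid RNA in this comparison was not tested. The B cell list gene Cd74 (-1.28 ± 0.31) and Tnfsf11 (-1.31 ± 0.34) were lower as well. Among the higher genes were the proteoglycan Gpc3 (1.72 ± 0.33, adjusted p = 0.000292 in edgeR), the matrix protein Fbln1 (1.39 ± 0.27), the Wnt regulator Sfrp2 (1.24 ± 0.29), the collagen-processing enhancer Pcolce2 (1.37 ± 0.33) and the sphingomyelinase Smpd3 (2.53 ± 0.50). In the main comparison Smpd3 stood at 18.5, 58.3 and 30.0 CPM with T cell RNA (10, 22 and 1 UMIs) against 14.9, 4.35 and 2.26 CPM without. Its rise thus lay mainly in 2-IC replicate 2, and its value is a description.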

How the data were processed

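Per the labels and the study's methods, the authors sequenced 3 libraries and aligned reads to GRCm38 (Ensembl release 89) with Cell Ranger (5.0.0 per the file headers), and deposited unnormalized UMI counts per gene and barcode. Libraries were grouped by title, since short descriptions of the 2-IC libraries conflict. Members and gene lists were chosen with earlier results of these data known. Barcodes were filtered and classed by the rule in the report. B cell barcodes held Cd79a or Cd79b and fewer than 3 matrix UMIs.

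Counts were summed per class and library and scaled to CPM, and classes under 5 barcodes got no mean. Thinning drew 2000 UMIs per barcode once. The test was edgeR 4.0.16 (R 4.3.3), quasi-likelihood with TMM scaling, its filter on low counts, the library as a block and adjusted p under 0.05, on 2 residual degrees of freedom. The test estimates spread over genes jointly and not from these libraries for each gene alone. A small p-value therefore does not show that the libraries agree on a gene. Ptprc, for one, had 0 UMIs with T cell RNA in the 1-IC library. DESeq2 1.42.0 was an alternative. On simulated sums of 9560 genes, 100% of 4-fold and 22% of 2-fold rises were recovered, and 90% of 4-fold and 22% of 2-fold falls. Of the calls, 4.88% were false. The simulation gave all genes the same dispersion and changed only genes of at least median count, so that these rates do not cover genes of lower counts. Scrublet (scanpy 1.11.5) marked 1, 4 and 12 barcodes, which were left out in an alternative only.

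Genes named from the test were the 5 that rose and the 5 that fell most among calls with 1 sign in all 3 libraries. From each list the highest were named, and outside the lists the 10 largest ratios at 200 CPM or more. Symbols with several Ensembl IDs (such as Ccl19 and Ccl21a) were summed for the levels per class, whereas the edgeR test and the CPM given with it took each ID by itself. Positions are from GENCODE M21.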

Additional observations from a re-analysis of the deposited data

Results flagged for a closer look

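Further T cell RNA lay outside the rule. Among kept barcodes with neither Trac nor Cd3d and fewer than 3 matrix UMIs, 8 (6, 2 and 0 per library) carried at least 2 of Cd3e, Cd3g, Trbc1 and Trbc2, which is 0.177% of 4513. Trac or Cd3d met Cd79a or Cd79b in 88 barcodes (64, 18 and 6 per library, 1.95%), and 25 of these (15, 7 and 3) carried at least 2 of the same 4 receptor genes. The limits on genes and mitochondrial UMIs had removed 20 barcodes with Trac or Cd3d (15, 5 and 0). These barcodes are listed because their counts were above 0, and no control library was analysed here against which to set them.

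Of the 81 genes called between reticular barcodes with and without T cell RNA, 30 were higher with it in both 2-IC libraries and lower in the 1-IC library, among them Ptprc, Cd52 and Coro1a. In the 4 barcodes of the 1-IC library, 28 of the 30 had 0 UMIs, and 1 UMI there is 30.0 CPM. Another 2 genes were lower in both 2-IC libraries and higher in the 1-IC library. The difference between the groups was not tested.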

How the results depend on the processing

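With 4 T RNA-bearing reticular barcodes in the 1-IC library and 31 with a fuller receptor, the classes are small, and depth limits every 0. Matrix limits of 1 and 10 moved the T cell and reticular barcodes to 98 and 148, and to 179 and 67. Reticular barcodes numbered 32 at 2 or more UMIs of Trac and Cd3d, 30 at 2 or more of Trac, Cd3d, Cd3e and Trbc2, 31 with at least 1 other receptor gene (added after the data were seen) and 135 with Cd79 allowed. Genes apart between T cell and T RNA-bearing reticular barcodes ranged from 1000 to 1287 (higher) and from 1476 to 2009 (lower) with a library left out, where fewer values had to stand apart.

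Genes called between reticular barcodes ranged from 3 to 275 (higher) and from 2 to 58 (lower) with a library left out, the lowest without 2-IC replicate 1 and the highest without the 1-IC library. Without 2-IC replicate 2 they were 55 and 4. They were 185 and 43 with no filter on low counts, 32 and 2 without the replicate block, 24 and 11 at 10 or more matrix UMIs, 222 and 125 at 2 or more rule UMIs, and 6 and 0 at 2000 to 8000 UMIs. DESeq2 called 82 higher and 7 lower of 15517 genes, 20 of them shared with edgeR's 81, with a median log2 fold change over all genes of 0.42 against -0.05. Leaving out barcodes with other receptor genes gave 12 and 11 and put Rgs10 at -0.97 ± 1.14 (SE; unadjusted p = 0.395 in edgeR). The cause was not tested. Of 103 alternative values of the 10 named genes, 77 kept direction and call, 25 lost the call and 1 changed sign. Lost calls include those of Stra6, Fcgr2b and Gm42031, which had 0, 1 and 3 UMIs with T cell RNA in all. The replicate numbers of the 2-IC and 1-IC groups overlap in number 1 alone, so that the block is the library and pairs no samples across groups.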

Other observations

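Of the 6 genes of the proliferation list, 1 was called higher in reticular barcodes with T cell RNA (Stmn1, 1.36 ± 0.32), beside 0.607% of all genes, and Pcna, Birc5, Top2a, Tyms and Mki67 (-0.47 ± 0.50) were not called. The genes that follow were picked from the calls after values were seen, and no list was tested with them. A gene low in barcodes without T cell RNA passes a filter on low counts more easily where it is high, so that these values are a description. Hells, a chromatin remodeller, stood at 76.0, 31.8 and 30.0 CPM with T cell RNA against 6.71, 13.2 and 11.3 CPM without (log2 fold change 2.41 ± 0.43 SE in edgeR). The helicase subunit Mcm3 stood at 79.7, 23.9 and 150 CPM against 12.1, 19.6 and 11.3 CPM (1.98 ± 0.41). The checkpoint adaptor Clspn stood at 24.1, 29.2 and 59.9 CPM against 2.47, 9.82 and 0.453 CPM (2.60 ± 0.55), and Cdca7 at 37.1, 10.6 and 30.0 CPM against 5.13, 8.28 and 5.89 CPM (1.93 ± 0.54). Their 1-IC values with T cell RNA rest on 2 and 1 UMIs. The epigenetic regulator Uhrf1 (2.53 ± 0.50) and the nucleotidase Dut (1.64 ± 0.33) were higher in both 2-IC libraries and at 0 CPM in the 1-IC library. Pclaf, which binds the replication clamp, stood at 96.4 against 4.64 CPM in 2-IC replicate 1, but at 31.8 against 33.8 CPM in 2-IC replicate 2. In T cell barcodes the 6 genes of the proliferation list summed to 90.1, 337 and 90.5 CPM, against 332, 231 and 120 CPM in T RNA-bearing reticular barcodes.

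Penk, which encodes enkephalin, was also higher with T cell RNA (2.32 ± 0.36), at 202, 21.2 and 0 CPM against 20.1, 13.7 and 11.3 CPM, so that the difference lay mostly in 2-IC replicate 1. Genes lower with T cell RNA outside the lists included the contractile protein Tagln (74.1, 37.1 and 30.0 CPM against 203, 134 and 206 CPM) and the morphogen Bmp2 (13, 0 and 0 CPM against 44.5, 31.8 and 34.0 CPM).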
